A study of Mus musculus with 24 samples.

Results

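The subject is the set of nuclear genes that encode subunits of oxidative phosphorylation, followed across 24 hippocampal RNA libraries. Members were all genes whose symbol begins with Nduf followed by A, B, C, S or V and a digit, with Uqcr, with Cox4 to Cox8, or with Atp5. The rule took 82 of the 21793 genes in the table and used no measured value. By name, 38 belonged to complex I, 8 to complex III, 18 to complex IV and 18 to complex V. A filter on low values kept 79 of them, which were 38, 8, 16 and 17 genes in the same order of complexes. The name is not always the place: Ndufa4 was first assigned to complex I and is known as a subunit of complex IV, and Ndufb1-ps is annotated as a non-coding transcript.

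The animals were female mice that ate 1 of 3 diets for 6 months from the age of 3 months. The model strain was 3xTg-AD (3xTg), which models Alzheimer's disease with human APP and MAPT transgenes under the neuronal Thy1 cassette; the comparison strain was B6129SF2/J (WT). In the ketogenic diet (K), 90% was long-chain triglyceride and 10% protein, without carbohydrate, at an energy density of 6.7 kcal/g. The MCT diet (M) was 70% carbohydrate, 10% medium-chain triglyceride, 10% long-chain triglyceride and 10% protein, and the control diet (C) had 20% long-chain triglyceride in place of that mixture; both supplied 4.1 kcal/g. The groups were 3xTg ketogenic (5 libraries), 3xTg MCT (4), 3xTg control (3), and WT ketogenic, MCT and control (4 each). A library is named by strain, diet letter and replicate. The labels do not say whether replicates were separate animals, so p-values measure the spread between these libraries.

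Reads assigned to genes totalled 10.1 to 25.8 M in 23 libraries and 2.65 M in 3xTg_K_2. Thy1, whose regulatory sequence drives the transgenes, was at 20385 to 29277 normalised counts in 10 libraries labelled 3xTg and at 6952 to 8137 in 11 labelled WT. It went against the label in 3: it was at 9189 in 3xTg_C_3, 8112 in 3xTg_K_1 and 23048 in WT_M_2. All libraries kept their labels, and genotype results are also given without these 3. For the hippocampal label, 6 dentate granule and 6 CA pyramidal markers were all detected: their summed levels averaged 6705 to 7834 and 8052 to 9110 normalised counts over the 6 groups. The 6 striatum markers were detected too, at averages of 704 to 845, and summed choroid plexus markers reached 13029 in a WT control library. Detection alone therefore cannot decide whether the dissection was clean. The tissue is bulk, so fewer cells of a type and less RNA per cell cannot be told apart.

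Oxidative phosphorylation passes electrons from NADH through complex I, ubiquinone, complex III and cytochrome c to oxygen at complex IV. These complexes pump protons out of the matrix, and complex V uses the returning protons to make ATP. Each complex joins nuclear subunits to a few subunits encoded by mitochondrial DNA, except complex II, which is wholly nuclear. In the hippocampus this pathway supplies most of the ATP that neurons spend on ion pumping and synaptic transmission.

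Transcription of these genes is known to involve the factors NRF1, ETS proteins of the GABP type and YY1. Promoters from RefSeq on GRCm38.p6 were available for 64 of the 82 members, and the 250 bases before each start were searched on both strands for an exact match to 1 form of each factor's motif. The NRF1 form, the letters in capitals below, which read the same on both strands, was found in 4 of 64 members (6.25%) and in 237 of 27025 genes of the promoter table (0.877%). The ETS form CCGGAAGT was found in 3 members (4.69%; Atp5h, Uqcr11 and Uqcrh) and in 3.23% of all genes. The YY1 form AAGATGGC was found in 1 member (1.56%; Atp5j) and in 1.83% of all genes. No member held more than 1 of the 3 motifs, and a match here is a string of letters, not a bound site. The 4 members with the NRF1 form are shown with 10 bases on each side, and the capitals mark the match.
Atp5g2 (chr15:102671070-102671099, minus strand): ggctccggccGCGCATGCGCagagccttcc
Atp5k (chr5:108434430-108434459, minus strand): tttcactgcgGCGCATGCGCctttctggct
Cox6a1 (chr5:115349101-115349130, minus strand): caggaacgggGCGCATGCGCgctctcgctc
Ndufa11 (chr17:56717692-56717721, plus strand): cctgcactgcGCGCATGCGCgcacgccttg
The match ended 32 bases before the RefSeq start in Atp5g2, 40 in Atp5k, 50 in Ndufa11 and 152 in Cox6a1. As GENCODE annotates the genes, the stretch of Atp5g2 lies inside the gene, which begins at 102672352 on the minus strand. That of Atp5k spans the gene's beginning at 108434448, and those of Cox6a1 and Ndufa11 lie outside their genes. None of these 4 genes was called in any comparison below.

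The members that the genotype comparison turns on include Ndufc2 and Cox7c, and their upstream sequence holds none of the 3 motifs. That of Ndufc2 (chr7:97399753-97400002, plus strand) ends at the gene's start and contains runs of repeated ACAT and AC, while that of Cox7c (chr13:86046905-86047045, minus strand) is the part that also lies outside the gene as GENCODE annotates it and ends 109 bases before the RefSeq start.
Ndufc2: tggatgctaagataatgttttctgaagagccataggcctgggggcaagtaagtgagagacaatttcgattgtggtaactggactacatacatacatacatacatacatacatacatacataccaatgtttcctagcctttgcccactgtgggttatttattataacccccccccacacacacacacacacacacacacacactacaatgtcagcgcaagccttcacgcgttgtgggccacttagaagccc
Cox7c: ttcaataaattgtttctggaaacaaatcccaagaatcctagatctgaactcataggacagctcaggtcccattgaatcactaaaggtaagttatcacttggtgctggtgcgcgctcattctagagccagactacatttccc

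Levels between members were compared as the mean normalised count over 24 libraries per kilobase of exon. The length joined the exons of all annotated transcripts of a gene, coding or not, so ranks between members depend on the annotation. In complex I the highest levels per kilobase were those of Ndufa4 (1724) and Ndufc2 (1383). The 7 nuclear core subunits of complex I, which carry the flavin and the iron-sulfur clusters or the quinone site, had a median of 595 per kilobase, with the lowest level, 320, in Ndufs7. Complex III was led by the small subunits Uqcr10 (1659) and Uqcrh (1527), and complex IV by Cox8a (3688) and Cox6b1 (2824). The alpha and beta subunits of complex V, Atp5a1 (3508) and Atp5b (3224), stood close to Cox8a.

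For each subunit with several isoforms, 1 gene carried most of the counted RNA. Cox4i1 had a mean of 4220 normalised counts and 2722 per kilobase, while its lung-type and hypoxia-responsive partner Cox4i2 had 7.35 and 9.32. The ubiquitous Cox6a1 was at 2627 per kilobase and the heart and muscle form Cox6a2 at 21.6. Cox6b1 was at 2824 and the testis form Cox6b2 at 13.9 per kilobase. Among the Cox7a genes, Cox7a2 was at 1817, the supercomplex factor Cox7a2l at 451 and the muscle form Cox7a1 at 18.9 per kilobase. Cox7b stood at 1613 against 16.9 for Cox7b2, and Ndufa4 at 1724 against 11.4 for Ndufa4l2, a hypoxia-responsive paralogue. The 3 genes Atp5g1, Atp5g2 and Atp5g3 encode the same mature ring protein, subunit c, and stood at 78.5, 12.1 and 1072 per kilobase.

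Of the 3 members that the filter removed, Cox8b, another muscle form, averaged 1.67 normalised counts and was at 0 in 7 libraries. Cox8c and the first of 2 entries named Atp5o had 0 reads among 345.71 M in all libraries, which allows a level of up to 0.00868 reads per M at 3 reads (counting error only). The second Atp5o entry, the peripheral stalk protein OSCP, had a mean of 766.8 normalised counts and is the one meant below.

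**Figure D1:**
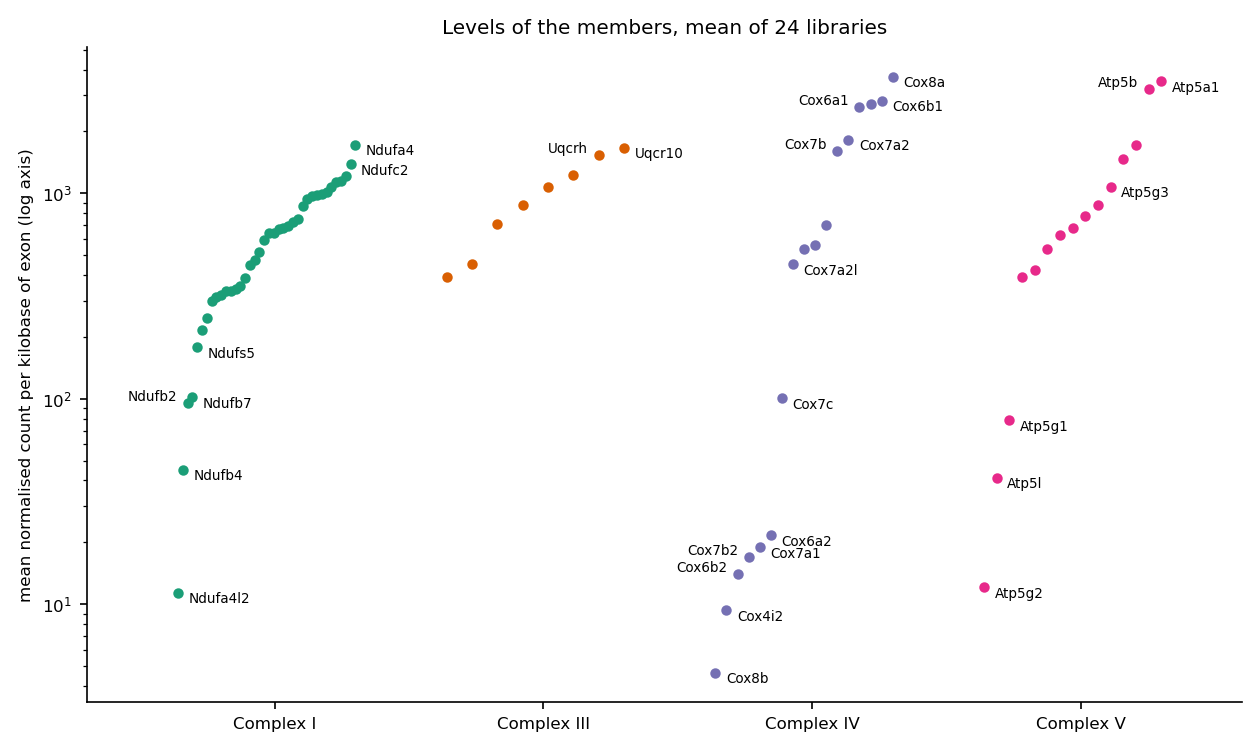
Mean normalised count per kilobase of exon over 24 libraries (log axis) for each member with a reference gene and a value above 0, sorted within complexes I, III, IV and V. Tissue isoforms of complex IV lie between 4.64 (Cox8b) and 21.6 (Cox6a2), while Cox8a stands at 3688; Cox7c, at 101, lies between the low isoforms and the rest of complex IV.

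Several members share sequence with processed pseudogenes or other copies, so reads from them can be lost or split by the counting, which is not described in the sources used here. Of 78 members with a protein-coding transcript, 38 had no 50-base window of coding sequence in a transcript of another gene, and 14 shared at least 50% of their coding windows. Cox7c, Atp5l, Atp5g2 and Ndufb4 shared 100% of theirs, Ndufs5 72.5%, Ndufa12 69.8%, Cox7a2l 54.1% and Cox6c 53.6%. For Ndufs1 it was 7.27%, with Ino80dos, and for Ndufc2 0%. Of the other subunit c genes, Atp5g1 shared 99.7% and Atp5g3 0%, so the ranking of the subunit c genes is uncertain. The levels of the members with much shared sequence are uncertain, and so are their differences below.

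Across the 24 libraries most members varied little. Among the 72 kept members that averaged 50 normalised counts or more, 70 had a highest library less than 2 times the lowest, and the median ratio over the 72 was 1.40. The exceptions were Ndufs5 (13.9 times) and Cox7c (3.34 times). One library, 3xTg_K_5, held the lowest value of 48 of the 72 members: 24 of 37 in complex I, 5 of 8 in III, 8 of 11 in IV and 11 of 16 in V. This library had 14.9 M reads, within the range of the others. The highest value was in 3xTg_C_1 for 25 members and in WT_M_4 for 20.

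The level of a complex was taken in each library as the mean over its kept members of the log2 value, centred on each gene's mean over the 24 libraries. For complex I it averaged -0.05 ± 0.14 in 3xTg ketogenic (SD, n = 5), 0.00 ± 0.07 in 3xTg MCT (n = 4) and 0.08 ± 0.09 in 3xTg control (n = 3). In WT it averaged 0.02 ± 0.05 on the ketogenic diet, 0.03 ± 0.09 on MCT and -0.06 ± 0.06 on the control diet (n = 4 each). Of the 3 libraries of 3xTg control 2 lay above all 4 of WT control, and the third lay inside their range.

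Complex III averaged -0.04 ± 0.14 in 3xTg ketogenic (SD, n = 5), 0.00 ± 0.04 in 3xTg MCT (n = 4) and 0.11 ± 0.11 in 3xTg control (n = 3), with WT means of 0.01, 0.00 and -0.04 on the ketogenic, MCT and control diets (n = 4 each). Complex V had the narrowest spread of group means, between -0.03 ± 0.07 in WT control (n = 4) and 0.05 ± 0.09 in 3xTg control (n = 3).

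Complex IV differed in shape. It averaged -0.13 ± 0.25 in 3xTg ketogenic (SD, n = 5) and -0.11 ± 0.03 in 3xTg MCT (n = 4), against 0.06 ± 0.08 in 3xTg control (n = 3). In WT it averaged 0.09 ± 0.08 on the ketogenic diet, 0.09 ± 0.15 on MCT and 0.03 ± 0.08 on the control diet (n = 4 each). Every 3xTg MCT library lay between -0.14 and -0.08, below 3 of the 4 WT MCT libraries; the other, at -0.08, was WT_M_2, 1 of the 3 whose Thy1 went against the label. Part of this came with the low isoforms: over the 11 complex IV members averaging 50 or more, the 3xTg MCT mean was -0.07 ± 0.08 and the WT MCT mean 0.05 ± 0.14. The 3xTg MCT libraries then ranged from -0.18 to 0.00, and WT_M_1 (-0.02) and WT_M_2 (-0.06) lay inside that range. Over the same members the 3xTg ketogenic mean was -0.07 ± 0.16 and the WT ketogenic mean 0.07 ± 0.07.

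**Figure D2:**
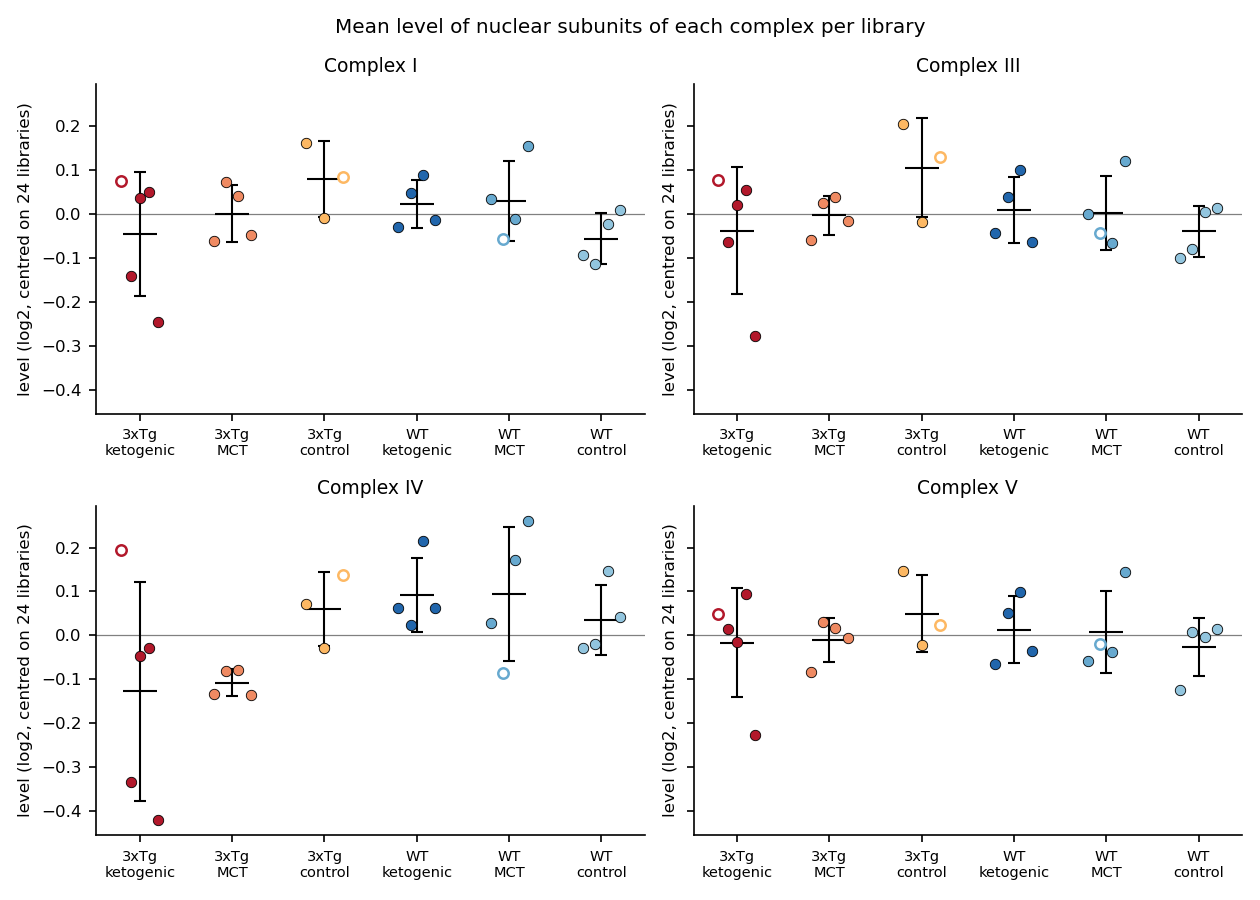
Level of complexes I, III, IV and V in each library (log2, centred on the 24 libraries), by group from 3xTg ketogenic to WT control; bars are mean and SD, and open points are the 3 libraries whose Thy1 went against the label. In 3xTg ketogenic, 3xTg_K_5 is the lowest library in all 4 panels, from -0.23 in complex V to -0.42 in complex IV.

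The complexes tended to lie on the same side within a library. All 4 were above their mean in 7 libraries and below it in 6, so they agreed in sign in 13 of 24. The mean level of 76 cytosolic ribosomal protein genes, computed the same way, lay on the side of complex I in 18 of 24 libraries. That of the mitochondrially encoded genes did so in 14, taken over the 8 of 13 that the filter kept. In 3xTg_K_5 the ribosomal level was -0.23 and the mitochondrial one -0.17, and in 3xTg_C_1 they were 0.17 and 0.13. The part of whole-library shifts of this kind in the results below was not tested.

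Averaging the genotype difference over the 3 diets tests the mean difference between 3xTg and WT, which need not be present on each diet. Complex I held 3 genes that were higher in 3xTg, Ndufc2, Ndufs1 and Ndufa12, and complex IV held 1 that was lower, Cox7c. These 4 of 79 kept members (5.06%) were called by limma at a Benjamini-Hochberg adjusted p under 0.05 over all genes, against 8.10% of all 14162 genes tested (3.71% higher and 4.38% lower). No member of complexes III or V was called; there the smallest p belonged to Uqcrc2 (0.09 ± 0.03, limma adjusted p = 0.06) and Uqcrfs1 (0.10 ± 0.04, 0.0945), and to Atp5l (-0.20 ± 0.07, 0.064) and Atp5c1 (0.06 ± 0.03, 0.3). The share of members lies below the background, so the count is no result about the set as a whole. The median log2 difference over the members was 0.02; it was 0.0015 without 3xTg_C_1, 0.0375 without 3xTg_K_5 and 0.0021 without the 3 libraries of conflicting Thy1. By complex it lay at 0.02 in complex I, 0.03 in III, -0.05 in IV and 0.03 in V.

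Ndufc2 encodes an accessory subunit of the membrane arm of complex I (chromosome 7, 97400003 to 97407802). It was at 1194, 1026, 1078, 1155 and 858 normalised counts in 3xTg ketogenic libraries, 1040.0, 1190.0, 1122 and 1098 in 3xTg MCT, and 1282, 1138 and 1059.9 in 3xTg control. In WT it was at 976, 978, 959 and 1035 on the ketogenic diet, 932, 1109, 900.5 and 1119.8 on MCT, and 938, 846, 991 and 1004 on the control diet. All but 1 of the 12 3xTg libraries lay above the WT mean, and the ranges overlapped. The means were 1103 ± 106 in 3xTg and 982 ± 79.0 in WT (SD, n = 12 each), a log2 difference of 0.18 ± 0.05 (SE; limma adjusted p = 0.0337).

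Ndufs1 encodes the largest iron-sulfur core subunit of complex I, at the arm that takes electrons from NADH (chromosome 1, 63143596 to 63176833). Its normalised counts were 3088, 2804, 2834, 2922 and 2622 in 3xTg ketogenic, 2908, 3055, 2769 and 2809 in 3xTg MCT and 2950.0, 2683 and 3109 in 3xTg control. WT libraries had 2624, 2813, 2835 and 2544 on the ketogenic diet, 2742, 2806, 2485 and 2884 on MCT and 2582, 2582, 2600.3 and 2657 on the control diet. The means were 2879 ± 155 in 3xTg and 2679 ± 131 in WT (SD, n = 12 each), the ranges overlapped, and the log2 difference was 0.11 ± 0.03 log2 (SE; limma adjusted p = 0.0434), with 11 of 12 3xTg libraries above the WT mean.

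Ndufa12, an accessory subunit of the same arm (chromosome 10, 94198720 to 94221443), was at 547 to 671 normalised counts in 3xTg ketogenic, 598 to 667 in 3xTg MCT and 606 to 664 in 3xTg control. WT had 557 to 654, 503 to 596 and 544 to 646 on the ketogenic, MCT and control diets. Its means were 633 ± 36.8 in 3xTg and 577 ± 41.9 in WT (SD, n = 12 each). The log2 difference was 0.14 ± 0.04 (SE; limma adjusted p = 0.0445), and 69.8% of its coding windows occur in the copy Gm15920. Over 34 alternative fits, Ndufc2 was called in 27, Ndufs1 in 15 and Ndufa12 in 14, so the calls of Ndufs1 and Ndufa12 depend on single libraries and settings.

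Cox7c, a small subunit of complex IV (chromosome 13, 86044816 to 86046904), was the member with the largest called difference. It stood at 148, 64.8, 70.2, 114 and 59.6 normalised counts in 3xTg ketogenic libraries, 56.7, 77.3, 76.9 and 78.1 in 3xTg MCT and 119, 71.8 and 139 in 3xTg control. In WT it stood at 172, 169, 189 and 102 on the ketogenic diet, 106, 67.3, 137 and 179.9 on MCT and 117, 111, 179 and 127 on the control diet. The means were 89.6 ± 31.7 in 3xTg and 138 ± 39.0 in WT (SD, n = 12 each). The log2 difference was -0.61 ± 0.17 (SE; limma adjusted p = 0.0246), with 10 of 12 3xTg libraries below the WT mean, and the call was lost without 3xTg_C_2 (adjusted p = 0.0621).

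The libraries with conflicting Thy1 held the most extreme crossings of Cox7c. The highest pair of 3xTg values were those of 3xTg_K_1 (148) and 3xTg_C_3 (139), and the lowest WT value was that of WT_M_2 (67.3). Among the other 10 3xTg libraries Cox7c lay between 56.7 and 119, and among the other 11 WT libraries between 102 and 189, so these ranges still overlapped. Without the 3 libraries the log2 difference was -0.82 ± 0.14 (SE; limma adjusted p = 0.000399), and it was -1.04 ± 0.22 on the ketogenic diet (adjusted p = 0.00909), -0.93 ± 0.24 on MCT (adjusted p = 0.0491) and -0.50 ± 0.28 on the control diet (adjusted p = 0.411). Its whole coding sequence is shared with the processed pseudogenes Gm10012, Gm12338 and Gm20091, which were not analysed here, and its level per kilobase (101) was the lowest among complex IV members averaging 50 or more. Whether reads are lost to these copies to a different degree in the strains was not tested.

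Without the 3 libraries 4 members were again called in the averaged comparison, but not the same 4. Ndufc2 (0.20 ± 0.05, adjusted p = 0.0134) and Cox7c remained, Cox6c was now higher (0.16 ± 0.05, adjusted p = 0.0394) and Cox7a2l lower (-0.17 ± 0.05, adjusted p = 0.0341), all in complex IV but the first. Ndufa12 (adjusted p = 0.0643) and Ndufs1 (0.0984) did not pass. In that fit 13.2% of 14126 genes were called.

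**Figure D3:**
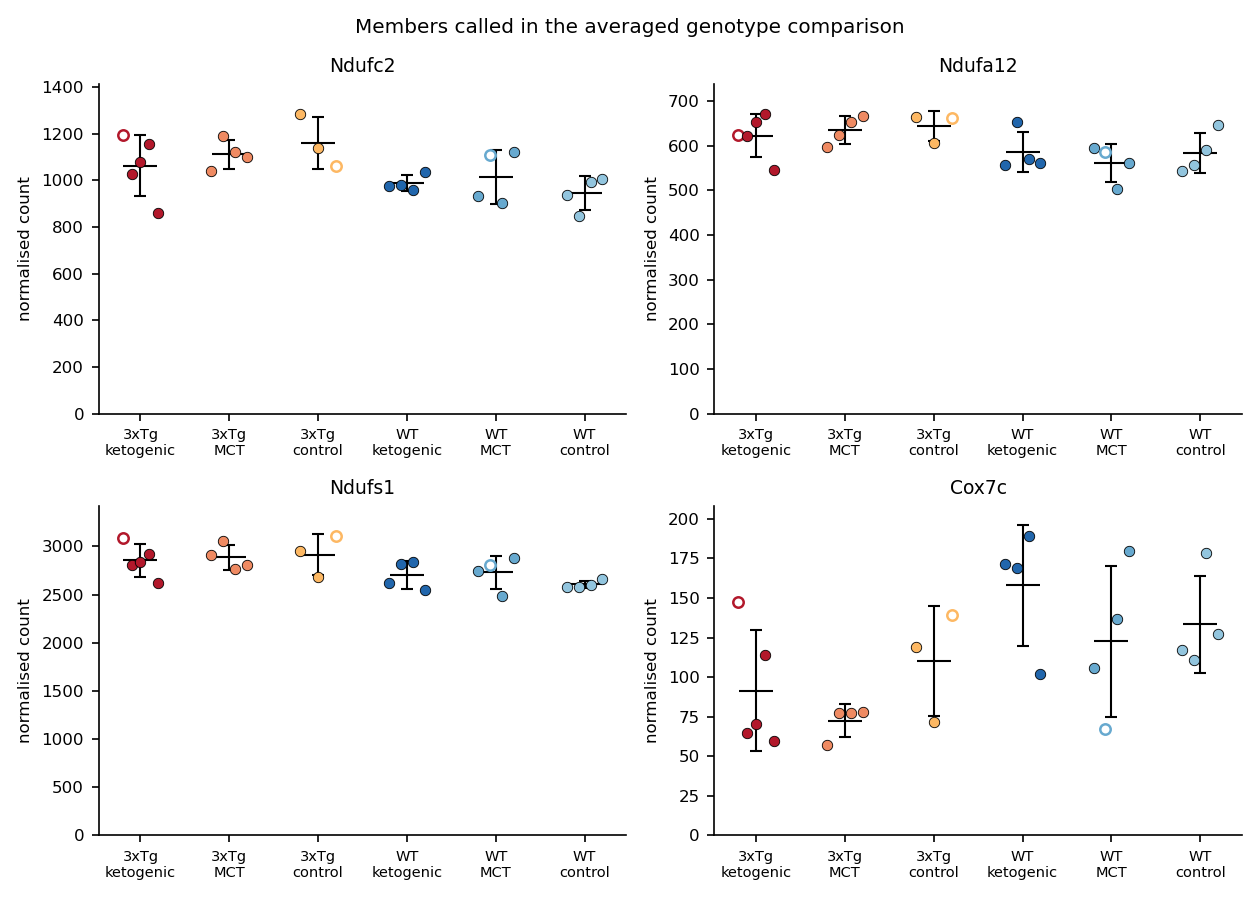
Normalised counts of Ndufc2, Ndufa12, Ndufs1 and Cox7c per library, by group from 3xTg ketogenic to WT control, with mean and SD; open points are the 3 libraries whose Thy1 went against the label. The complex I genes overlap widely between strains, while for Cox7c all filled 3xTg points lie at or below 119 and all filled WT points at or above 102.

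Other genes of the pathway gave few calls in the averaged comparison. Of the 4 genes of complex II, Sdhd, a membrane anchor, was called (0.13 ± 0.04, limma adjusted p = 0.0436), and all 4 had positive differences. Tmem126b, a complex I assembly factor, was called among 16 such factors (0.18 ± 0.04, adjusted p = 0.0114), and Cox18, an insertase for complex IV, among 20 (0.37 ± 0.10, adjusted p = 0.0185). Of 13 mitochondrially encoded subunits the filter kept 8, namely mt-Nd1 to mt-Nd6, mt-Cytb and mt-Co1, and mt-Nd1 was called (0.20 ± 0.05, adjusted p = 0.0225). None was called among 6 assembly factors of complex III and 5 genes for the assembly or inhibition of complex V. The same held for 11 genes of the mobile carriers (cytochrome c and ubiquinone synthesis) and for 10 regulators. Log2 differences of the regulators ran between -0.10 (Ppargc1b) and 0.07 (Ppargc1a). Cell markers were called beside them: higher in 3xTg were 3 of 8 oligodendrocyte, 3 of 8 interneuron, 2 of 6 astrocyte and 2 of 6 microglia markers, and lower were 3 of 6 dentate granule and 3 of 8 endothelial and mural markers, 1 of 8 pan-neuronal and 1 of 6 striatum markers. Of 6 CA pyramidal markers 1 was called in each direction, of 76 ribosomal genes 4 were higher, and of 5 parvalbumin interneuron, 5 choroid plexus, 5 ependymal and 5 red cell markers none was called. These counts stand beside the 8.10% of all genes called. The part of cell composition in the subunit differences was not tested.

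On the control diet the genotypes were compared without either test diet. Across all 4 complexes most subunits had positive differences, 3xTg over WT: 36 of 38 in complex I (median log2 difference 0.14), 8 of 8 in complex III (0.17), 12 of 16 in complex IV (0.07) and 13 of 17 in complex V (0.12). None of the 79 was called by limma, against 0.0565% of all genes (0.00706% higher and 0.0494% lower). At an unadjusted p under 0.05 there were 21 members (10, 2, 3 and 6 in complexes I, III, IV and V), against 14.5% of all genes, and the median over all genes was -0.01.

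Of complex I, the membrane-arm subunit Ndufb3 (chromosome 1, 58586384 to 58595964) had 1062, 863 and 956 normalised counts in 3xTg control and 766, 790.1, 825 and 844 in WT control. All 3 of the 3xTg libraries lay above all 4 WT libraries, and the log2 difference was 0.25 ± 0.08 (SE; limma adjusted p = 0.161). Ndufc2 differed by 0.29 ± 0.09 (adjusted p = 0.173). The core subunits ranged from -0.01 to 0.27 (median 0.15, 6 of 7 positive) and the other 31 from -0.04 to 0.29 (median 0.14, 30 of 31 positive), so core and accessory subunits lay in the same range.

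In complex III the Rieske iron-sulfur protein Uqcrfs1 (chromosome 13, 30540308 to 30545362) had 1689, 1429.9 and 1669 normalised counts in 3xTg control, against 1298, 1369, 1476 and 1398 in WT control. One 3xTg library lay inside the WT range, and the log2 difference was 0.20 ± 0.07 (SE; limma adjusted p = 0.188). The core protein gene Uqcrc2 differed by 0.16 ± 0.06 (adjusted p = 0.198).

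Complex V values followed the same order. Atp5c1, the gamma subunit of the rotating central stalk (chromosome 2, 10056016 to 10080510), had 3663, 3242 and 3535 in 3xTg control, against 3038, 3086, 3131 and 3122 in WT control, so the groups did not overlap. Its log2 difference was 0.17 ± 0.06 (SE; limma adjusted p = 0.229), and that of the small proteolipid gene Atp5mpl was 0.21 ± 0.08 (adjusted p = 0.25). The 4 peripheral stalk genes lay between 0.09 and 0.15, and Atp5g1, Atp5g2 and Atp5g3 between -0.06 and 0.12. In complex IV, Cox5a (0.14 ± 0.06, adjusted p = 0.294) and Cox6c (0.20 ± 0.09, adjusted p = 0.311) had the smallest p.

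The excess of positive differences on the control diet held with each library left out in turn, at 65 to 71 of the kept members with medians from 0.09 to 0.17, and with the 3 conflicting libraries left out at 68 of 79 (median 0.11). Other lists moved alongside. Of 76 ribosomal protein genes 59 were positive (median 0.10), as were 8 of 8 mitochondrially encoded genes (0.20) and 4 of 4 of complex II (0.18). All 8 oligodendrocyte markers were positive (0.28), with a summed level of 80531 ± 5620 normalised counts in 3xTg control and 64583 ± 7554 in WT control (SD, n = 3 and 4; ranges 75459 to 86572 and 54056 to 72042). All 6 astrocyte and all 6 microglia markers were positive too (0.16 and 0.17), as were all 8 interneuron markers (0.16). The 8 pan-neuronal markers were split 4 to 4 (0.00). Of 6 dentate granule markers 4 were negative (median -0.24), and of 8 endothelial and mural markers 5 were (-0.17). Summed choroid plexus markers lay between 441 and 608 in 3xTg control and between 519 and 13029 in WT control (median 719). The part of these lists in the subunit differences was not tested.

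**Figure D4:**
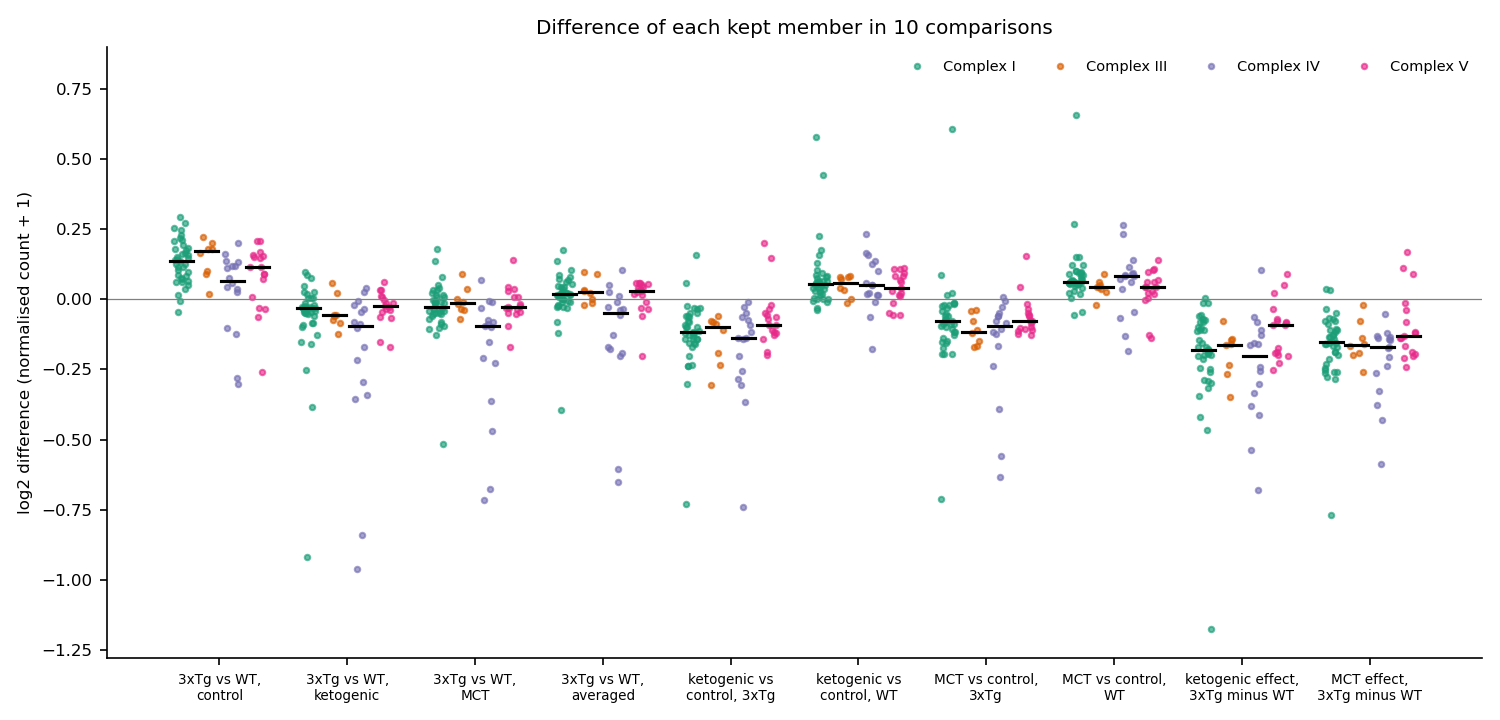
Log2 difference of each of the 79 kept members in 10 comparisons, by complex (one point a gene, with a black line at the median of each complex). In the genotype comparison on the control diet 69 of 79 points lie above 0, and for the ketogenic diet within 3xTg 75 lie below it; both use the 3xTg control libraries.

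Genotype on the other diets showed the opposite majority. On the ketogenic diet 60 of 79 members had negative differences (median -0.04), and on MCT 57 of 79 (median -0.03). None was called on either diet, against 0.155% (0.0636% higher and 0.0918% lower) and 0% of all genes. At an unadjusted p under 0.05 there were 3 members on each diet, against 14.6% and 7.12% of all genes. Complex IV had the lowest medians, -0.09 on the ketogenic diet and -0.10 on MCT, with 14 and 15 of its 16 genes negative. Without the 3 libraries of conflicting Thy1, 65 of 79 members were negative on the ketogenic diet (median -0.07) and 61 of 79 on MCT (-0.04). The ribosomal genes gave 58 and 56 of 76 negative differences (medians -0.08 and -0.05), and their part in the result was not tested.

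The smallest p on the ketogenic diet was that of Cox7a2l, which encodes a factor that joins complexes III and IV into supercomplexes (chromosome 17, 83501918 to 83517330). It had 589, 605, 634, 658 and 524 normalised counts in 3xTg ketogenic and 612, 757, 789 and 801 in WT ketogenic, a log2 difference of -0.29 ± 0.08 (SE; limma adjusted p = 0.0911; DESeq2 on recovered reads, -0.30, adjusted p = 0.0484). The lowest WT library lay inside the 3xTg range and the other 3 above it. On MCT it had 592, 617, 645 and 579 in 3xTg and 685, 635, 695 and 802 in WT (-0.21 ± 0.09, adjusted p = 0.613). On the control diet it had 700.0, 655 and 801 in 3xTg and 659.8, 658, 623 and 699.8 in WT, where 3xTg was not below WT.

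Other members with the smallest p on the ketogenic diet were Cox7c (-0.84 ± 0.27, adjusted p = 0.147) and Ndufa3 (-0.15 ± 0.06, adjusted p = 0.233), an accessory subunit of the complex I membrane arm. Uqcrq differed by -0.12 ± 0.11, the hinge protein Uqcrh by -0.08 ± 0.07, the epsilon subunit Atp5e by -0.15 ± 0.08 and subunit g, Atp5l, by -0.17 ± 0.11 (limma adjusted p between 0.371 and 0.627). On MCT, Ndufa12 differed by 0.18 ± 0.07 (adjusted p = 0.598) and Cox7c by -0.68 ± 0.29 (0.619). Ndufa3 (-0.10 ± 0.06), Uqcrc2 (0.09 ± 0.05), Uqcrh (-0.07 ± 0.07), Atp5l (-0.17 ± 0.11) and Atp5e (-0.10 ± 0.08) followed there. The negative majority on these diets depended on single libraries. Without 3xTg_K_5, 51 of the kept members were positive on the ketogenic diet (median 0.02), and without WT_M_4, 45 were positive on MCT (median 0.01).

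Within 3xTg, the ketogenic diet was compared with the control diet. Subunits of all 4 complexes had mostly negative differences: 36 of 38 in complex I, 8 of 8 in complex III, 16 of 16 in complex IV and 15 of 17 in complex V, with medians of -0.12, -0.10, -0.14 and -0.09. None was called, against 0% of all genes. At an unadjusted p under 0.05 there were 13 members, against 6.69% of all genes, and the smallest adjusted p of a member was 0.724.

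Ndufb9, an accessory subunit of the complex I membrane arm, had 818, 605, 746, 733 and 529 normalised counts on the ketogenic diet and 939, 749 and 831 on the control diet (-0.30 ± 0.10, SE; limma adjusted p = 0.724). Uqcrq of complex III had 751, 508, 779.7, 716 and 544 on the ketogenic diet and 917, 712 and 794 on the control diet (-0.31 ± 0.12, adjusted p = 0.724). In both genes the lowest pair of values came from 3xTg_K_2, the library of low depth, and 3xTg_K_5. Cox7a2l differed by -0.26 ± 0.09, Ndufs7, which carries the last iron-sulfur cluster before ubiquinone, by -0.20 ± 0.08, Uqcr11 by -0.23 ± 0.10, Cox7a2 by -0.20 ± 0.09, OSCP by -0.19 ± 0.08 and Atp5g3 by -0.13 ± 0.05 (adjusted p = 0.724 each). The ribosomal genes gave 59 of 76 negative differences (median -0.08) and the oligodendrocyte markers 7 of 8 (-0.11). Negative too were 7 of 8 interneuron (-0.12), 5 of 6 astrocyte (-0.10) and 8 of 8 pan-neuronal markers (-0.03). So were 7 of 8 mitochondrially encoded genes (-0.06). Positive were 5 of 8 endothelial and mural markers (0.06) and 10 of 16 complex I assembly factors (0.03). The part of these lists in the result was not tested. Without 3xTg_K_5, 61 of 79 members stayed negative and the median was -0.06.

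MCT against the control diet in 3xTg gave 72 of 79 negative differences (median -0.08), with complexes at -0.08, -0.12, -0.10 and -0.08, and no call, against 0% of all genes. At an unadjusted p under 0.05 there were 3 members, against 2.67% of all genes. The smallest p belonged to Cox7a2l (-0.24 ± 0.09), Ndufs7 (-0.17 ± 0.08) and Ndufb8 (-0.15 ± 0.07), each at a limma adjusted p of 0.999. In the other complexes it belonged to Uqcrfs1 (-0.12 ± 0.07), Uqcr10 (-0.15 ± 0.09), Atp5g3 (-0.11 ± 0.06) and OSCP (-0.13 ± 0.08), with Cox7c (-0.56 ± 0.31) next in complex IV. Ribosomal genes were negative in 62 of 76 (-0.08), mitochondrially encoded genes in 8 of 8 (-0.06) and oligodendrocyte markers in 7 of 8 (-0.11), and their part in the result was not tested. Without 3xTg_C_1 the median was -0.04, with 61 members of the kept set negative.

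In WT both diets ran the other way. For the ketogenic diet 66 of 79 members had positive differences (median 0.05), and for MCT 69 of 79 (median 0.06), each over the control diet. No member was called, against 0% and 0.00706% of all genes. At an unadjusted p under 0.05 there were 1 and 2 members, against 4.62% and 4.79% of all genes. Medians of the 4 complexes lay between 0.04 and 0.06 on the ketogenic diet and between 0.04 and 0.08 on MCT, all within the spread between libraries. Ndufs8, an iron-sulfur core subunit of complex I, had 745, 791, 818 and 768 normalised counts in WT ketogenic, 771, 699.7, 764 and 842 in WT MCT and 658, 640.2, 749.6 and 722 in WT control (0.17 ± 0.08 and 0.15 ± 0.08 over control; limma adjusted p = 0.983 and 0.989). The low paralogue Ndufa4l2 differed by 0.58 ± 0.29 and 0.66 ± 0.29 (adjusted p = 0.983 and 0.989), at 18.1 normalised counts or fewer in every library. On the ketogenic diet the others of smallest p were Uqcrc2 (0.08 ± 0.05), Uqcrh (0.08 ± 0.07), Cox7a2l (0.16 ± 0.09), Cox7b (0.13 ± 0.07), Atp5mpl (0.11 ± 0.07) and Atp5c1 (0.08 ± 0.06). On MCT they were Uqcrq (0.09 ± 0.11), Uqcrh (0.05 ± 0.07), Cox5a (0.12 ± 0.05), Cox6c (0.14 ± 0.08), Atp5j2, subunit f (0.14 ± 0.08), and Atp5md (0.11 ± 0.07). Beside them, 62 and 58 of 76 ribosomal genes were positive on the ketogenic diet and MCT (medians 0.08 and 0.03), as were 7 of 8 mitochondrially encoded genes on both (0.07 and 0.16) and 6 and 5 of 6 microglia markers. Their part in the result was not tested. Without WT_M_4 the MCT count was 53 positive (median 0.02), and without WT_C_1 the ketogenic count was 51 (median 0.03).

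Whether a diet acted differently by genotype was tested directly as the effect in 3xTg minus the effect in WT. No member was called for either diet, against 0% of all genes for each. The ketogenic contrast was negative for 74 of 79 members (median -0.17; 13 members at an unadjusted p under 0.05, against 6.68% of all genes), and the MCT contrast for 74 of 79 (median -0.15; 5 members, against 2.78%). By complex the ketogenic medians were -0.18, -0.16, -0.20 and -0.09 for I, III, IV and V, and the MCT medians -0.15, -0.16, -0.17 and -0.13. Other lists lay on the same side for the ketogenic diet and MCT: 65 and 66 of 76 ribosomal genes were negative (-0.15 and -0.14), 7 of 8 mitochondrially encoded genes for both, 8 and 7 of 8 oligodendrocyte markers, and 6 of 6 astrocyte markers for both. Interneuron markers were negative in 7 of 8 for the ketogenic diet (-0.12) and 4 of 8 for MCT (0.01). Their part in the result was not tested.

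Cox7a2l had the smallest p for both, at -0.41 ± 0.12 for the ketogenic diet (SE; limma adjusted p = 0.724) and -0.33 ± 0.13 for MCT (adjusted p = 0.9998). For the ketogenic diet it was followed by Ndufb3 (-0.29 ± 0.10) and Ndufs8 (-0.32 ± 0.12), and in complexes III and V by Uqcr10 (-0.26 ± 0.12), Uqcrq (-0.35 ± 0.16), Atp5mpl (-0.25 ± 0.11) and Atp5c1 (-0.19 ± 0.08), with Cox7a2 (-0.30 ± 0.13) next in complex IV. For MCT the others were Ndufs7 (-0.26 ± 0.11), Ndufb11 (-0.28 ± 0.12), Uqcrfs1 (-0.17 ± 0.09), Uqcrh (-0.16 ± 0.10), Cox5a (-0.14 ± 0.08), Atp5j2 (-0.24 ± 0.11) and Atp5md (-0.21 ± 0.11). These contrasts, the control-diet genotype comparison and the diet comparisons share the 3 libraries of 3xTg control and the 4 of WT control, so their directions are not independent of each other. With each library left out in turn, 3 to 11 members were positive for the ketogenic contrast and 3 to 9 for MCT, and the ketogenic median was -0.11 without 3xTg_K_5. Without the 3 libraries of conflicting Thy1, 75 and 73 of 79 members were negative for the ketogenic diet and MCT (medians -0.19 and -0.15). No member was called there, against 0% and 0.0142% of all genes. The highest 3xTg value of Cox7a2l, 801, was that of 3xTg_C_3, 1 of these 3. Among the other 10 3xTg libraries the highest was 700.0.

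Ndufs5, an accessory subunit of complex I on the intermembrane side (chromosome 4, 123712710 to 123718202), had the widest spread of the 72 members averaging 50 or more, and it was singled out after its values were seen. It had 122, 21.6, 249.5, 95.3 and 118 normalised counts in 3xTg ketogenic, 104, 231, 128 and 27.0 in 3xTg MCT and 250.2, 129 and 121 in 3xTg control. In WT it had 148, 239.7, 226 and 129.7 on the ketogenic diet, 245, 19.9, 257 and 276 on MCT and 135, 109, 146 and 142 on the control diet. The values fell into 3 separate ranges: 3 libraries between 19.9 and 27.0, 13 between 95.3 and 148, and 8 between 226 and 276. Each genotype was in each range, with 2, 7 and 3 of the 3xTg libraries and 1, 6 and 5 of the WT libraries from low to high. The largest step between neighbouring libraries was 1.82 log2, against 0.39 for Cox7c and less for every other member averaging 50 or more. No comparison called Ndufs5, and 72.5% of its coding windows occur in the pseudogene BC002163.

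**Figure D5:**
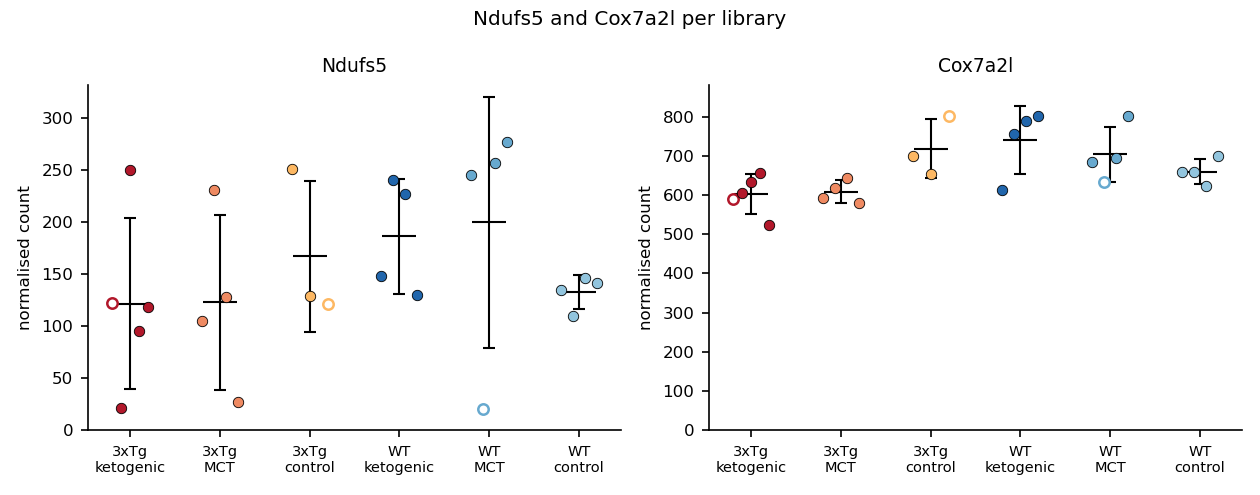
Normalised counts of Ndufs5 and Cox7a2l per library, by group from 3xTg ketogenic to WT control, with mean and SD; open points are the 3 libraries whose Thy1 went against the label. Ndufs5 takes low, middle and high values (19.9 to 27.0, 95.3 to 148 and 226 to 276) within single groups, while Cox7a2l lies between 524 and 802 in all libraries.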

How the data were processed

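RNA was polyA-selected from hippocampus. Reads were handled with Trimmomatic, STAR and GRCm38, per the submitters' processing notes; which counter, annotation and scaling tool followed is not given in the sources used here. Deposited was 1 table by the authors, whose signal values are normalised read counts of 21793 genes in 24 libraries. In each library 100% of values were whole reads divided by 1 factor, within 0.01 reads.

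The filter on low values required 10 normalised counts in 3 libraries and left 14162 genes. Log2(value + 1), a scale that understates changes of low genes, was fitted with limma 3.58.1 (R 4.3.3) as 6 group means with a trended prior. Two-sided p-values were adjusted by Benjamini-Hochberg across these 14162 genes; calls required an adjusted p below 0.05. The members, gene lists and tests were chosen with earlier results of these data known. Named genes are the called members and, in each comparison and complex without a call, the 2 of smallest p; levels are given for the 2 highest of each complex and for isoforms. Cox7a2l beyond these, Atp5l on the control diet, Cox6c without the 3 libraries, and Ndufs5 were named after their values were seen. One gene that the rule names is not reported here. Positions and lengths come from GENCODE M21 and promoters from RefSeq GRCm38.p6. Alternatives were other pseudocounts and filters, TMM scaling, edgeR 4.0.16 and DESeq2 1.42.0 on recovered reads, the compared groups alone, a replicate block, and libraries left out. The fit was tested on simulated data.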

Additional observations from a re-analysis of the deposited data

Results flagged for a closer look

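In groups of 4 or 5 libraries, a value was listed where the gap between the highest or lowest library and its neighbour was large relative to the group's range (Dixon's 95% critical value). Of 260 groups tested 15 were listed, and chance lists about 1 in 20.

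The library WT_M_4 stood apart from the rest of the WT MCT group in this way for 5 members, on the high side. Uqcrq was at 861 normalised counts there, with the other 3 at 684 to 708, and Ndufb9 at 886, with the others at 713 to 732. Uqcr11 was at 659 (others 528 to 548), Cox7a2 at 2084 (others 1649 to 1715) and Cox8a at 2717 (others 2266 to 2331).

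In 3xTg MCT, 3xTg_M_1 was the lowest for Cox7c (56.7, others 76.9 to 78.1), Ndufs8 (719, others 806 to 823) and Atp5a1 (10678, others 11099 to 11142). In 3xTg ketogenic, 3xTg_K_5 was the lowest for Uqcr11 (399, others 562 to 583), 3xTg_K_3 the highest for the low isoform Cox4i2 (12.7, others 4.71 to 5.77) and 3xTg_K_1 the highest for Cox6a2 (44.9, others 5.4 to 10.7).

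In WT ketogenic, Ndufa12 was at 654 in WT_K_2 (others 557 to 571) and Ndufb1-ps at 771 in WT_K_3 (others 706 to 717). In WT control, Atp5l was at 364 in WT_C_2 (others 249.6 to 267), and the complex V level was -0.12 in WT_C_1 (others 0.00 to 0.02).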

How the results depend on the processing

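Of 2765 values recomputed under 35 alternative settings, 2686 were labelled the same. For single genes this meant the same direction and side of the threshold, and for counts a value within 1.5 times. A complex median was labelled the same if it shifted by less than the pooled SD within groups, whatever its sign. No called value changed sign. For genotype averaged over diets, 4 members were called. The number was 2 with no filter (Ndufc2 and Cox7c; 5.64% of all genes in that fit) and 1 to 6 with each library left out (4.07% to 10.7% of all genes); Cox7c alone was called without 3xTg_C_1, 3xTg_K_4, 3xTg_M_2, WT_C_2 or WT_M_3. On the ketogenic diet, where none was called, the number was 1 without the 3 libraries of conflicting Thy1 (Cox7c; 3.62% of all genes), 1 with DESeq2 (Cox7a2l; 1.06%), and 0 to 1 with each library left out (Cox7c without 3xTg_K_1, adjusted p = 0.0370; 2.3%). On MCT it was 1 without the 3 libraries (Cox7c; 1.77%). One of the 79 members is 1.27%, near or below these shares. The cause was not tested. Under the replicate block 6 members were called in the averaged comparison, against 4 (8.31% of all genes, against 8.10%); same-numbered libraries did not deviate together (median r = -0.0003 over 55 pairs), so the numbers do not pair them. The block changed no count in the other comparisons. Uncalled medians also changed sign: without 3xTg_K_5, and under the block, those of complexes I, III and V on the ketogenic diet became 0.0167, 0.0170 and 0.0222, and without WT_M_4 those on MCT became 0.0118, 0.0407 and 0.0201. The replicate number 5 occurs only in 3xTg_K_5, so the block gives that library a term of its own. For the ketogenic genotype comparison the block and the removal of 3xTg_K_5 are therefore not separate alternatives. Removing WT_K_3 gave 0.0037 for V on the ketogenic diet, and removing 3xTg_M_1 gave 0.0067 for III on MCT. The alternative that fits only the compared groups was not run for the averaged comparison, which uses all of them. Depth limits 3xTg_K_2 (2.65 M reads) and the low isoforms.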
